A study of Mus musculus with 42 samples.

Results

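The interferon response genes described here were 3 interferon regulatory factors (Irf7, Irf1 and Irf9), the signal transducer Stat2, the effectors Ifit1, Ifit2, Ifit3 and Oasl2, and the protease Usp18. They were found by gene symbol in the array annotation. These 9 genes of 21186 named on the array were carried by 12 probes, and all 9 could be tested in both tissues. RNA of the aorta and of skeletal muscle was measured on 42 single-colour Agilent arrays, with 3 arrays for each of 7 groups of adult male mice in each tissue. Levels are log2 of background-corrected, quantile-normalised intensity, and differences are differences of group means on that log2 scale.

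Group G was healthy C57BL/6 mice given saline. Group A was diabetic KK/Ay mice given saline, a strain that carries the Ay agouti allele and becomes obese and diabetic spontaneously. Group C was the macroangiopathy model, KK/Ay mice fed a high-fat diet with L-NAME in their drinking water, which blocks nitric oxide synthase, and then given saline. Groups B, D, E and F were the same model mice given SHENQI compound, the yangyinyiqi formula, the huoxue formula or rosiglitazone, each daily by gavage. The yangyinyiqi and huoxue formulas consist of parts of the SHENQI ingredients, and rosiglitazone is an agonist of the nuclear receptor PPAR-gamma. The labels gave only group and tissue, and strain and treatment came from the study's methods. No group was a non-diabetic KK/Ay or a diabetic C57BL/6 mouse, so strain and diabetes cannot be told apart in any comparison with group G. Neither the high-fat diet nor L-NAME was given alone to a group, so their parts cannot be told apart either.

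Type I interferons bind the receptor formed by Ifnar1 and Ifnar2, and the kinases Jak1 and Tyk2 then phosphorylate Stat2. Stat2 and Irf9 are subunits of the ISGF3 complex, which binds the interferon-stimulated response element (ISRE) before genes such as Ifit1 and Oasl2. Interferon-gamma instead acts through the interferon-gamma-activated site (GAS), as in the Irf1 gene, while Irf7 drives a later wave of interferon production and Usp18 removes the ubiquitin-like protein Isg15 and dampens signalling at Ifnar2.

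The promoters were searched for both elements because interferons act on these genes through them. RefSeq starts (build GRCm38.p6) were available for 8 of the 9 genes, with 11 starts in all, and the 250 bases before each were read. The ISRE was searched as GAAA, any 2 bases, GAAA on both strands, and the GAS as TTC, any 3 bases, GAA, which reads the same on both strands. Ifit1, Ifit3 and Stat2 held the ISRE pattern, Irf1 and Ifit2 held the GAS pattern at the first of their starts, and Irf7, Irf9 and Oasl2 held neither in this window. Of 32851 promoters of the same length, 2.98% held the ISRE pattern and 7.02% the GAS pattern. Counted by gene, with any of its starts, 3.46% and 8.13% of 27025 genes did. The stretches that hold a match are printed on the gene's own strand, with capitals marking it. The ISRE matches lie on the other strand, so they read here as TTTC, any 2 bases, TTTC. They belong to Ifit1 (chr19:34640745-34640853, + strand), Ifit3 (chr19:34583333-34583456, + strand), Stat2 (chr10:128270248-128270325, + strand), Irf1 (chr11:53769884-53769972, + strand) and Ifit2 (chr19:34550444-34550501, + strand).
Ifit1: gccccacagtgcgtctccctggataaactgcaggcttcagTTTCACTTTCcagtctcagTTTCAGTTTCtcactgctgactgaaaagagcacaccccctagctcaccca
Ifit3: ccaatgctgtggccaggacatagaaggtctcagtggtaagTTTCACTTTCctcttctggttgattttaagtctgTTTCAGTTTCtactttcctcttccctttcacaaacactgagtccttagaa
Stat2: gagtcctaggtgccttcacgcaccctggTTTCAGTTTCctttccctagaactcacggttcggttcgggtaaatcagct
Irf1: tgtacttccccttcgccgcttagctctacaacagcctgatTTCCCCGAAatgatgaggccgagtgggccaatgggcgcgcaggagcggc
Ifit2: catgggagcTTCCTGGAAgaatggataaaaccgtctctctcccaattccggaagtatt

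Ifit1 and Ifit3 each held 2 copies of the ISRE pattern, and the first copy of Ifit1 reads the same as the first of Ifit3, the second the same as the second. The copies began 104 and 85 bases before the start of Ifit1 and 156 and 122 bases before that of Ifit3. The single copy of Stat2 lay farther out, from 222 bases before the start. The GAS pattern of Irf1 began 90 bases before its start and that of Ifit2 began 241 bases before its start. A match of letters is a description and shows no binding of a factor.

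**Figure D1:**
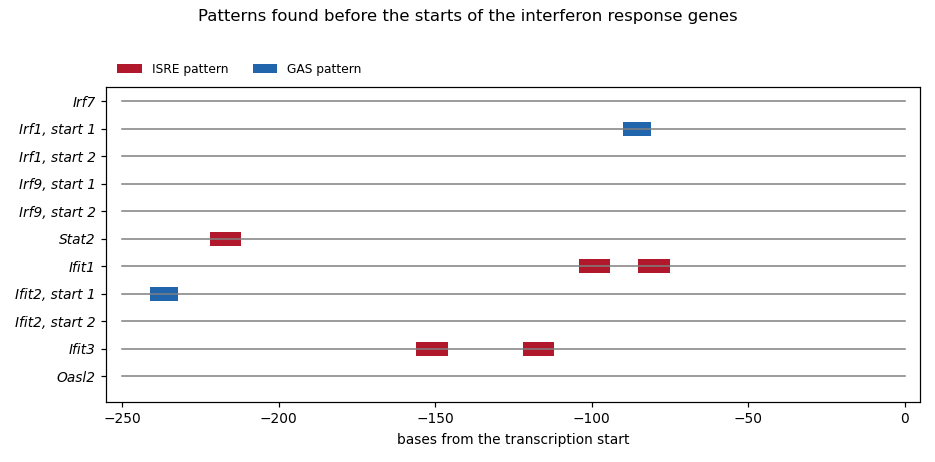
Each grey line is the 250 bases before a RefSeq start of a gene (horizontal axis, bases from the transcription start), with red bars for the ISRE pattern and blue bars for the GAS pattern. Ifit1 and Ifit3 carry 2 red bars each and Stat2 carries 1, while Irf1 and Ifit2 carry a blue bar at their first start.

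The probes lay, in the mm9 build of the scanner files, on chromosome 19 for Ifit1 (chr19:34723796-34723855), Ifit2 (chr19:34650244-34650303 and chr19:34648307-34648366) and Ifit3 (chr19:34663105-34663164), genes that are neighbours. The Irf7 probe was annotated to chr7:148450664-148451014, that of Stat2 to chr10:127729181-127729240, that of Oasl2 to chr5:115362168-115362227 and that of Usp18 to chr6:121220513-121220572. Irf1 (chr11:53590715-53590774 and chr11:53587446-53587591) and Irf9 (chr14:56228256-56228315 and chr14:56224980-56225190) had 2 probes each, as did Ifit2, and these were averaged. The dimmer Irf9 probe was well above background on 13 of 21 aorta arrays and on 1 of 21 muscle arrays. Ifit3 has a near-identical neighbour, Ifit3b, and whether the probe tells them apart was not tested.

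Some libraries stood apart before any comparison was made. Smooth muscle markers had a median summed linear level of 165000 in the aorta and 7250 in skeletal muscle, and skeletal muscle markers 17300 and 797000, each over 5 markers. The smooth muscle sum was 94700 to 169000 in the aortas of group A and 165000 to 225000 in those of group C. In healthy aorta 1 it was only 8090, against 51500 and 106000 in the other healthy aortas. The same array held the highest aortic sums of T cell (13500), B cell (38900), neutrophil (246000), natural killer cell (2910) and macrophage markers (7170), with 5 of 5, 5 of 5, 5 of 5, 4 of 5 and 6 of 6 found markers well above background. The T cell sum was also high in SHENQI aorta 2 (11400), huoxue aorta 2 (9000) and yangyinyiqi aorta 2 (7070), and at most 2720 in the other aortas. Healthy muscle 3 had a neutrophil sum of 114000, against at most 6020 in the other muscles. Results below are also given without these 5 libraries where they change, a choice made after the data were seen. Whole groups also differed. Macrophage sums were 2250 to 6060 in the healthy muscles and at most 2120 in the KK/Ay muscles. Fat cell sums there were 41400 to 108000 in group G, 22300 to 31600 in A and 17700 to 40400 in C. Smooth muscle, endothelium and fibroblast sums of healthy muscle overlapped with those of A and C. In the aorta, fibroblast sums were 4090 to 8540 in group G and at least 10300 in KK/Ay mice. The part of these differences was not tested. The nonagouti gene, which the Ay allele expresses widely, matched the strains of the methods, with levels of 5.30 to 5.56 and no probe above background on the 6 group G arrays and 8.77 to 10.15 on the 36 KK/Ay arrays. Between 20200 and 30274 of 41174 probes were well above background on each array.

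In bulk tissue, fewer cells of a type and less RNA per cell cannot be told apart. This touches the first result: healthy aorta 1 was the highest of the 21 aorta arrays for 8 of the 9 interferon response genes, all but Irf1. It exceeded the mean of the other 2 healthy aortas by 2.53 for Irf7, 2.35 for Ifit3, 1.63 for Ifit1, 1.47 for Usp18 and 1.37 for Oasl2. The smallest gap was 0.40, for Irf1. The median gap over the 9 genes was 1.37, against -0.10 over all 15845 genes tested in the aorta, and 18.4% of all genes were highest on this array. The leucocyte marker sums named above were also highest on this array among the aortas. SHENQI, huoxue and yangyinyiqi aorta 2, with high T cell sums too, had 9-gene means of 8.62, 8.32 and 8.21, against 8.90 on healthy aorta 3. The part of leucocytes in these levels was not tested.

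**Figure D2:**
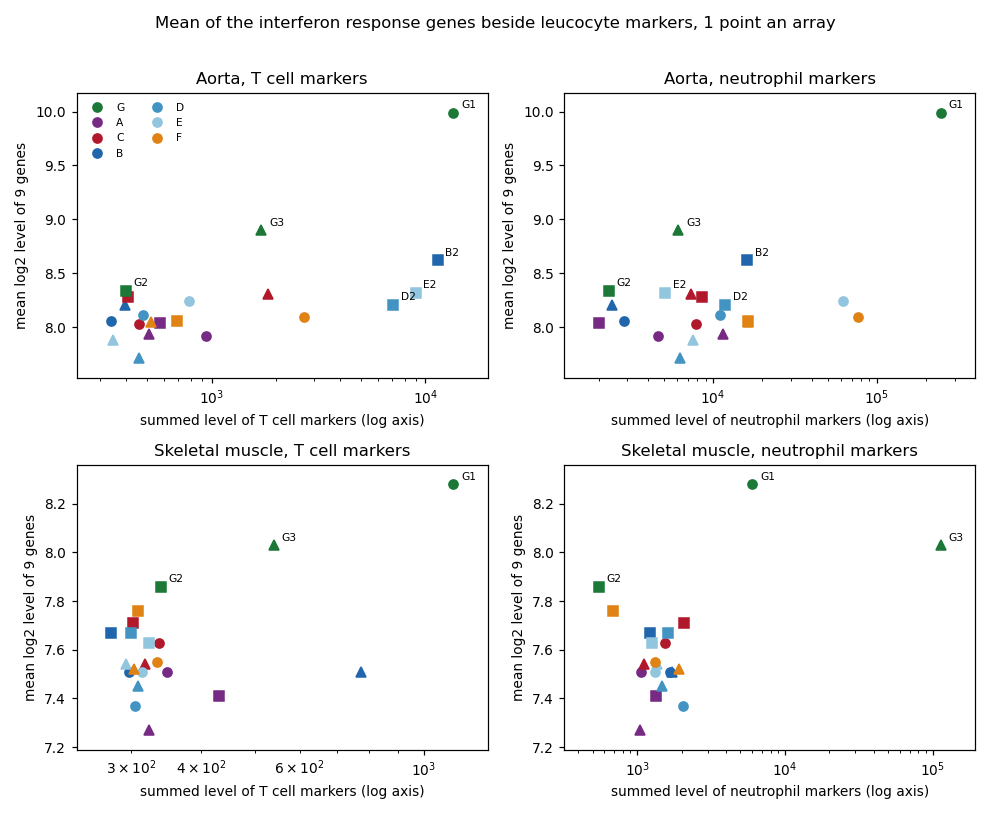
Each point is an array, with the mean log2 level of the 9 interferon response genes on the vertical axis and the summed linear level of T cell or neutrophil markers on a log horizontal axis, for the aorta (top) and skeletal muscle (bottom). Healthy aorta 1 (G1) lies at 9.99 with a T cell sum of 13500, while SHENQI, yangyinyiqi and huoxue aorta 2 also have high T cell sums and lie at or below 8.62.

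In the aorta, group G had the highest mean of the 7 groups for all 9 genes. The mean of the 9 genes was 9.99, 8.34 and 8.90 on the 3 healthy aortas and between 7.71 and 8.62 on the 18 KK/Ay aortas. The step from group G to the next group exceeded the SD between arrays of a group for Irf7, Stat2, Ifit1, Oasl2 and Usp18. No other step between neighbouring groups did, for any of the 9 genes.

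**Figure D3:**
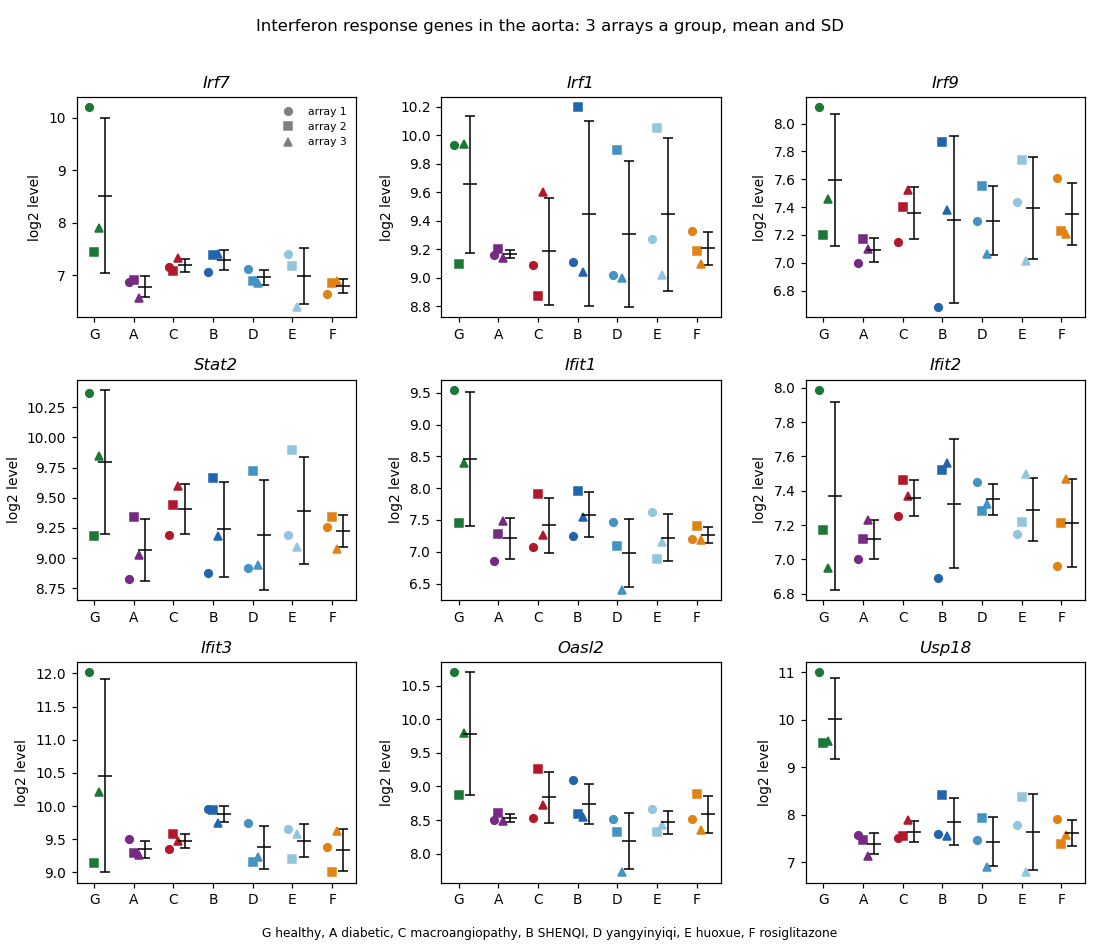
Log2 level of each gene (vertical axes) in the aorta by group, with circles, squares and triangles for arrays 1, 2 and 3 and a bar for the mean and SD of 3 arrays. The 3 healthy Usp18 points, from 9.50 to 11, lie above all KK/Ay points, which reach 8.42, and the first healthy array is highest in 8 of the 9 panels.

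Usp18 differed most. Its level was 11, 9.50 and 9.56 in the 3 healthy aortas, 7.57, 7.47 and 7.13 in the diabetic group A and 7.50, 7.54 and 7.89 in the macroangiopathy group C. All 3 healthy arrays lay above all 18 KK/Ay aorta arrays, which ran from 6.78 to 8.42. Usp18 was lower in group A than in group G by 6.19-fold (log2 difference -2.63, SE 0.42, 95% interval -3.51 to -1.75, limma adjusted p = 0.00244). In group C it was lower by 5.19-fold (-2.38, SE 0.42, interval -3.25 to -1.50, adjusted p = 0.0044). Without healthy aorta 1 these differences were -2.14 (adjusted p = 0.00704) and -1.89 (adjusted p = 0.0134). Usp18 was the only one of the 9 genes called in either comparison, which share the 3 healthy arrays, where 1.91% and 3.11% of all tested genes were called lower.

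Irf7, the factor of the later interferon wave, stood just outside the threshold. Its levels were 10.21, 7.44 and 7.91 in group G, 6.87, 6.92 and 6.56 in group A and 7.15, 7.09 and 7.33 in group C. The healthy arrays lay above both KK/Ay groups without overlap, although healthy aorta 2 was close to the highest array of group C. The difference was -1.73 for group A (SE 0.47, interval -2.72 to -0.75, adjusted p = 0.0515) and -1.33 for group C (SE 0.47, adjusted p = 0.0945). Without healthy aorta 1 the differences were -0.89 (adjusted p = 0.0655) and -0.48 (adjusted p = 0.285).

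The other transcription factors moved less. Stat2, a subunit of ISGF3, was at 10.37, 9.18 and 9.85 in group G and 8.83, 9.34 and 9.03 in group A (difference -0.73, SE 0.30, adjusted p = 0.2). Irf9, the DNA-binding subunit, was at 8.12, 7.20 and 7.46 against 7.00, 7.17 and 7.10 (-0.50, SE 0.28, adjusted p = 0.348). The Irf9 arrays of groups G and A did not overlap, but healthy aorta 2 was close to the highest of group A. Irf1 was at 9.93, 9.10 and 9.94 against 9.16, 9.20 and 9.14 (-0.49, SE 0.34, adjusted p = 0.47). In group C the differences from group G were -0.39 for Stat2, -0.24 for Irf9 and -0.47 for Irf1, and all 3 genes overlapped.

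Among the effectors, Oasl2, an OAS-like antiviral protein, was at 10.7, 8.87 and 9.79 in group G, 8.5, 8.6 and 8.49 in group A and 8.53, 9.26 and 8.72 in group C. Groups G and A did not overlap (-1.26, SE 0.34, adjusted p = 0.0538), while 1 array of group C lay above healthy aorta 2 (-0.95, adjusted p = 0.102). Ifit1, which binds viral RNA that lacks the host cap methylation, was at 9.55, 7.45 and 8.39 against 6.86, 7.28 and 7.49 in group A (-1.26, SE 0.41, adjusted p = 0.103). Ifit3, its partner, was at 12.02, 9.14 and 10.22 against 9.50, 9.29 and 9.27 (-1.10, SE 0.45, adjusted p = 0.196). Healthy aorta 2 lay inside or below the range of group A for both Ifit genes. In group C the differences were -1.05 for Ifit1 and -0.98 for Ifit3. Ifit2, at 7.99, 7.17 and 6.95 against 7.00, 7.12 and 7.23, showed the smallest difference (-0.25, and -0.01 in group C).

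Over the 9 genes the median difference was -1.10 in group A and -0.95 in group C, against 0.02 over all genes tested in both comparisons. At the unadjusted threshold of the study's methods 6 genes were lower in group A and 5 in group C, where 8.02% and 10.4% of all genes were. These values rested on healthy aorta 1: without it the median differences were -0.44 and -0.34, and Usp18 remained the only gene called in each. Without healthy aorta 2, in contrast, 6 and 5 genes were called, with Irf7 at -2.27 (adjusted p = 0.0088) and -1.87 (adjusted p = 0.0147). Irf7 of group A was also called without healthy aorta 3 (-2.04, adjusted p = 0.0428). On the only slide that carried both groups G and A, with healthy aortas 1 and 3 and 1 diabetic aorta, all 9 genes were lower in group A, by a median of -1.62 and from -2.71 for Usp18 to -0.47. Against healthy aorta 3 alone 8 of the 9 were lower, by a median of -1.02, with Usp18 at -1.99, Irf7 at -1.04 and Ifit2 at 0.05. No slide carried both groups G and C in either tissue, so slide and group cannot be told apart there. With or without healthy aorta 1, the healthy aortas had lower fibroblast sums than all KK/Ay aortas. The part of this difference was not tested.

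In skeletal muscle more of the 9 genes were called in groups A and C than in the aorta, with each tissue fitted separately. When all arrays of both tissues shared a fit, the order was reversed, with more called in the aorta for both groups. In the separate fits the median differences of A and C were -1.1 and -0.95 in the aorta and -0.68 and -0.43 in muscle. Without healthy aorta 1 the aortic medians were -0.44 and -0.34. The counts alone therefore do not rank the tissues. The mean of the 9 genes was 8.28, 7.86 and 8.03 in healthy muscle and between 7.27 and 7.76 in the 18 KK/Ay muscles, without overlap. Group G had the highest mean for 7 of the 9 genes. The exceptions were Ifit2, highest in group C, and Usp18, highest in group E.

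**Figure D4:**
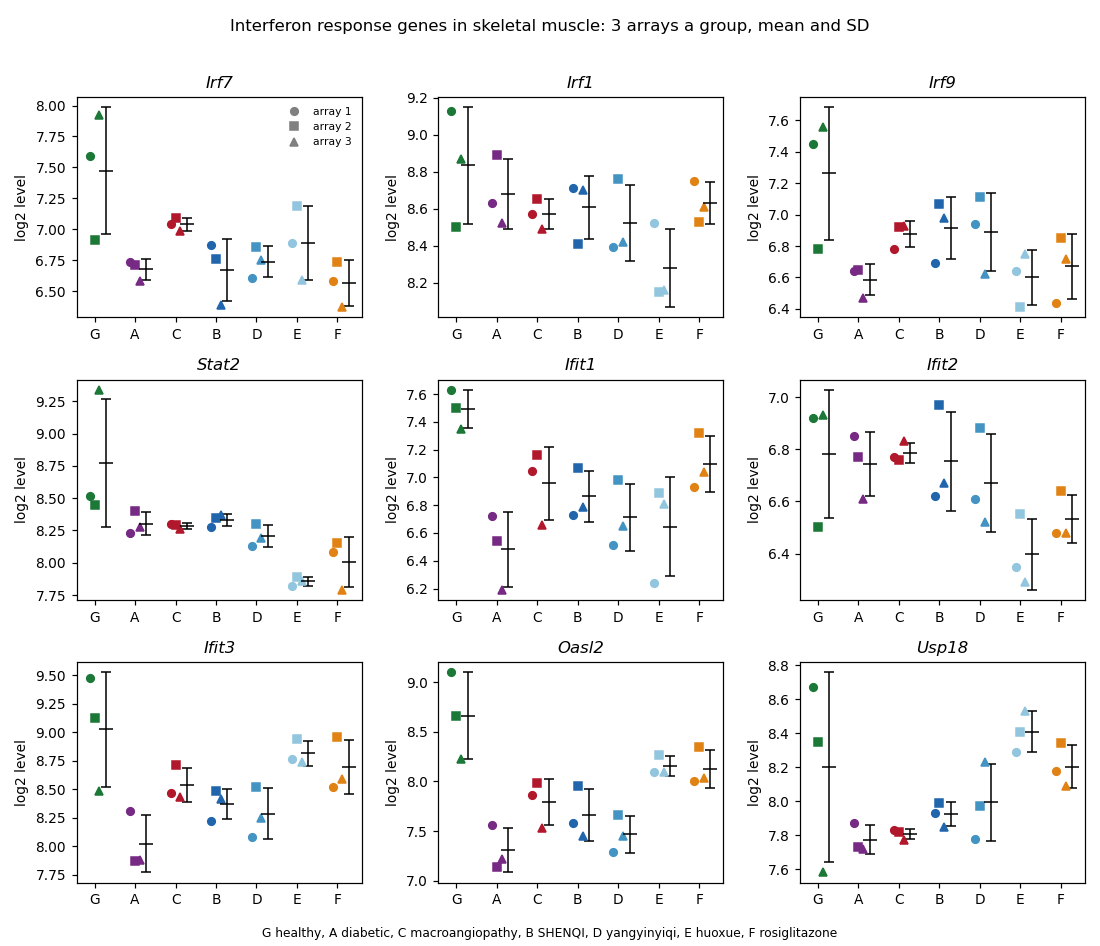
Log2 level of each gene (vertical axes) in skeletal muscle by group, with circles, squares and triangles for arrays 1, 2 and 3 and a bar for the mean and SD of 3 arrays. Healthy Oasl2 (8.23 to 9.10) and Ifit1 (7.35 to 7.63) lie above groups A and C, while healthy Usp18 spreads from 7.58 to 8.67 across the other groups.

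Oasl2 differed most between groups A and G. It was at 9.10, 8.66 and 8.23 in healthy muscle, 7.56, 7.14 and 7.22 in group A and 7.86, 7.98 and 7.53 in group C, and neither group overlapped with group G. It was lower by 2.56-fold in group A (-1.36, SE 0.19, interval -1.77 to -0.95, limma adjusted p = 9.42e-05) and by 1.83-fold in group C (-0.87, SE 0.19, interval -1.28 to -0.46, adjusted p = 0.00363). Ifit1 was at 7.63, 7.50 and 7.35 in group G, 6.72, 6.54 and 6.19 in group A and 7.05, 7.16 and 6.66 in group C. It too was lower without overlap in both, by -1.01 (SE 0.19, adjusted p = 0.000894) and -0.54 (SE 0.19, adjusted p = 0.0457). The Ifit1 call of group C was lost without healthy muscle 1 (-0.47, adjusted p = 0.129) or 2 (-0.53, adjusted p = 0.0695), or without macroangiopathy muscle 1 (-0.59, adjusted p = 0.0759) or 3 (-0.39, adjusted p = 0.199). Ifit3 was at 9.47, 9.12 and 8.48 against 8.31, 7.87 and 7.88 in group A and 8.47, 8.71 and 8.43 in group C. It was lower in group A (-1, SE 0.20, adjusted p = 0.00157), while group C overlapped with group G (-0.49, adjusted p = 0.0851). The value of group C was -0.76 without healthy muscle 3, where it was called (adjusted p = 0.0035), and -0.26 without healthy muscle 1. Ifit2, at 6.92, 6.50 and 6.93 in group G, differed by -0.05 in group A and by 0 in group C (interval -0.27 to 0.27).

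The transcription factors were also lower in group A, apart from Irf1. Irf7 was at 7.59, 6.91 and 7.92 against 6.74, 6.71 and 6.58 (-0.80, SE 0.20, adjusted p = 0.00754). Irf9 was at 7.45, 6.78 and 7.56 against 6.64, 6.65 and 6.47 (-0.68, SE 0.18, adjusted p = 0.00985). This call was lost on the brighter probe alone, where the difference was -0.35 (adjusted p = 0.102). Stat2 was at 8.52, 8.45 and 9.34 against 8.23, 8.40 and 8.28 in group A (-0.47, adjusted p = 0.0432) and 8.30, 8.29 and 8.26 in group C (-0.49, adjusted p = 0.037). Both Stat2 calls rested on healthy muscle 3, the array with the high neutrophil sum, and without it the differences were -0.18 (adjusted p = 0.164) and -0.20 (adjusted p = 0.123). Leaving out any single array of group A or of group C also ended the call, at -0.43 to -0.51 and -0.48 to -0.49. In group C, Irf7 at 7.04, 7.09 and 6.99 and Irf9 at 6.78, 6.92 and 6.93 overlapped with group G (adjusted p = 0.127 and 0.123). Without healthy muscle 2, the lowest healthy array for all 3 Irf genes and Stat2, Irf7 (-0.71, adjusted p = 0.00445), Irf9 (-0.63, adjusted p = 0.00501) and Irf1 (-0.43, adjusted p = 0.0395) were called in group C. Irf1 did not pass in either comparison (-0.15 and -0.27), although on its brighter probe alone group C was lower by -0.58 (adjusted p = 0.0231).

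Usp18, the most different gene in the aorta, was at 8.67, 8.35 and 7.58 in healthy muscle, 7.87, 7.73 and 7.72 in group A and 7.83, 7.82 and 7.77 in group C. Healthy muscle 3 was the lowest of these 9 arrays. The differences were -0.43 (SE 0.19, adjusted p = 0.102) and -0.39 (adjusted p = 0.14). Without healthy muscle 3 they were -0.74 (adjusted p = 0.000399) and -0.70 (adjusted p = 0.00062), and its neutrophil sum and its slide, which it shared with no other healthy muscle, were not tested as causes.

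In all, 6 of the 9 genes were called lower in group A, where 10.8% of all 14201 genes tested in muscle were, and 3 in group C, where 10.2% were. The median differences were -0.68 and -0.43, against 0.03 and 0.04 over all genes. Both comparisons share the 3 healthy muscles, and no slide carried groups G and A, or G and C, in this tissue. A batch term for slides 1, 3 and 11, set in muscle by the healthy arrays alone, moved calls both ways in limma. Oasl2 (-0.44, adjusted p = 0.159) and Ifit1 (-0.39, adjusted p = 0.269) of group C and Ifit3 of group A (-0.46, adjusted p = 0.112) lost theirs. Irf7 (-0.88, adjusted p = 0.0103) and Irf9 (-0.69, adjusted p = 0.0308) of group C gained one. Without healthy muscle 3, 6 and 4 genes were called lower, with medians of -0.57 and -0.25. Without healthy muscle 1 the medians were -0.59 and -0.29. In either case the macrophage sums of group G lay above those of all KK/Ay muscles, and their part was not tested.

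**Figure D5:**
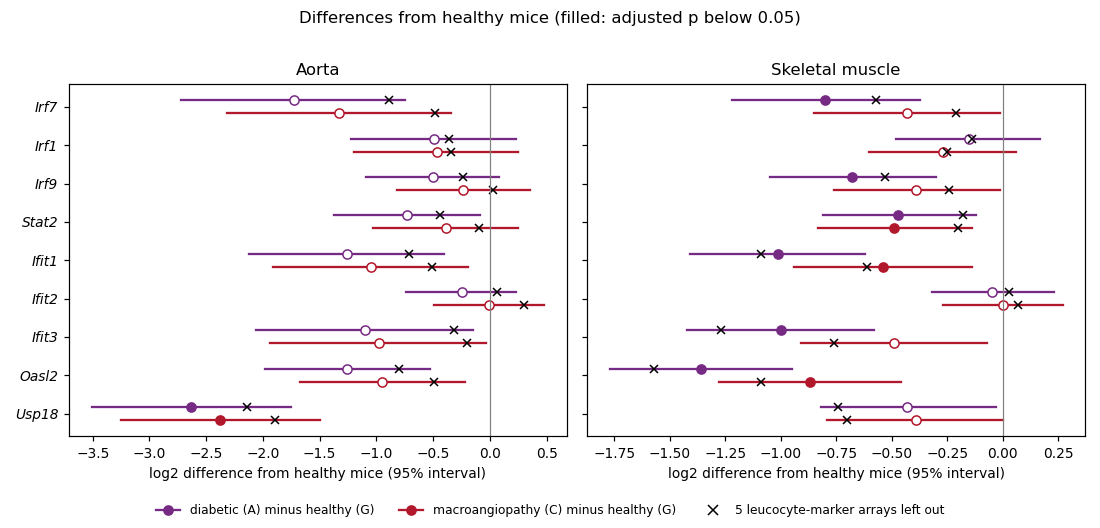
Log2 difference from healthy mice (horizontal axis, with its 95% interval) for each gene in the aorta (left) and skeletal muscle (right), for group A (purple) and group C (red), filled where the adjusted p was below 0.05. Black crosses give the values without the 5 libraries with high leucocyte marker sums. The crosses of aortic Usp18 lie at -2.14 for group A and -1.89 for group C, and those of aortic Ifit3 at -0.32 and -0.20.

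The difference between tissues was tested itself, as the difference in the aorta minus that in muscle. Usp18 passed: the difference of group A from group G was more negative in the aorta by -2.20 (SE 0.47, interval -3.15 to -1.25, adjusted p = 0.0138), and that of group C by -1.98 (SE 0.47, interval -2.94 to -1.03, adjusted p = 0.0158). It was the only one of the 9 genes that passed in either test, where 0.896% and 3.16% of all genes did. Without the 5 libraries the Usp18 values were -1.40 (adjusted p = 0.0088) and -1.18 (adjusted p = 0.0167). With slide as a random block the value of group A was -2.14 (adjusted p = 0.057). For the 6 other contrasts none of the 9 genes passed, where 0% of genes did for group C against A, B against C and D against C, 0.13% for E against C and 0.0124% each for F against C and B against F.

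Between healthy tissues, 8 of the 9 genes were higher in the aorta than in muscle, where 14.4% of all genes were. The differences were 1.82 for Usp18 (adjusted p = 6.97e-05), 1.44 for Ifit3, 1.12 for Oasl2, 1.04 for Irf7, 1.03 for Stat2, 0.97 for Ifit1, 0.82 for Irf1 and 0.58 for Ifit2. Irf9 differed by 0.33 (adjusted p = 0.317). Without healthy aorta 1 only Usp18 (1.33, adjusted p = 0.00153), Stat2 (0.74, adjusted p = 0.0249) and Ifit3 (0.65, adjusted p = 0.0466) were called. Without healthy muscle 2, 4 genes were called. The labels do not say which aorta and muscle came from the same mouse.

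Group C against group A, KK/Ay mice with and without the high-fat diet and L-NAME, called none of the 9 genes in either tissue, and 0% of all genes in either. No slide carried both groups in either tissue. In the aorta all 9 differences were above 0, between 0.02 and 0.41, and none passed limma's unadjusted threshold, where 1.78% of genes did. In muscle Ifit3 (0.51, SE 0.20), Ifit1 (0.48, SE 0.19) and Oasl2 (0.49, SE 0.19) passed the unadjusted threshold, where 3.69% of all genes did. Each had an adjusted p of 1.

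The effect of the treatments was read against group C, and group B was read against group F. In the aorta the 45 differences of the 9 genes ran from -0.65 to 0.54, with 95% intervals reaching from -1.37 to 1.49. None passed limma's test, adjusted or not, and the smallest unadjusted p was 0.0775. Of all genes, 0% were called after adjustment in each of B, D, E and F against C and in B against F. At the unadjusted threshold 1.34%, 0.379%, 0.77%, 2.88% and 5.48% passed, in that order. The intervals leave room for changes of over 1 on the log2 scale in either direction.

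The spread inside the treated aortas followed single libraries. SHENQI, yangyinyiqi and huoxue aorta 2, the arrays with high T cell sums, had Irf1 levels of 10.20, 9.90 and 10.05, while the other 2 arrays of each group lay between 9 and 9.27. They also held the highest Stat2, Irf9 and Usp18 levels of their groups, with Stat2 at 9.66, 9.72 and 9.90. For Oasl2 the same arrays were at 8.59, 8.33 and 8.32, inside or below the range of the others. So were Ifit3 (9.94, 9.16 and 9.20), Irf7 (7.38, 6.90 and 7.18) and Ifit2 (7.52, 7.28 and 7.22). Ifit1, at 7.95, 7.09 and 6.89, was highest of its group only on the SHENQI array. The part of the leucocyte markers in these levels was not tested.

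In skeletal muscle the huoxue group E moved 2 of the 9 genes, in opposite directions. Usp18 was at 8.29, 8.41 and 8.53 in group E against 7.83, 7.82 and 7.77 in group C, and rose 1.52-fold without overlap (0.60, SE 0.19, interval 0.21 to 1, limma adjusted p = 0.0342). Ifit2 was at 6.35, 6.55 and 6.29 against 6.77, 6.76 and 6.83, and was lower without overlap (-0.39, SE 0.13, interval -0.66 to -0.12, adjusted p = 0.045). Its 2 probes gave -0.65 and -0.13. On huoxue muscle 3 neither probe was well above background, and over the 21 muscle arrays the probes were so on 19 and 17. Stat2, at 7.82, 7.89 and 7.86 against 8.30, 8.29 and 8.26, was lower without overlap but did not pass (-0.43, adjusted p = 0.0787). Oasl2 (8.10, 8.27 and 8.09 against 7.86, 7.98 and 7.53) and Ifit3 (8.76, 8.94 and 8.74 against 8.47, 8.71 and 8.43) lay above group C without overlap but did not pass either (0.36 and 0.28). Without the 5 libraries, of which only healthy muscle 3 enters this fit, limma called Stat2 (-0.43, adjusted p = 0.00167). It was also called on the 6 arrays alone (adjusted p = 0.00584).

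The 2 calls of the main fit, Usp18 and Ifit2, stood against a background of 17.7% of all genes called in this comparison, a share near 2 of 9. No slide carried both groups, and with slide as a random block neither gene was called. Leaving out any of the 6 arrays ended the call of Usp18, at 0.54 to 0.66. Ifit2 lost it without huoxue muscle 1 or 3 or any array of group C, at -0.34 to -0.40. The skeletal muscle marker sum was 627000 to 672000 in group E against 812000 to 829000 in group C, and its part in the result was not tested. With the slides that carried groups E and F as a batch term, Usp18 turned to -0.33 (adjusted p = 0.291). That term is set in muscle by the healthy arrays alone, whose 2 arrays on such a slide exceeded the third by 0.94 for Usp18.

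Rosiglitazone, group F, called none of the 9 genes in muscle. Usp18 at 8.18, 8.34 and 8.09 and Oasl2 at 8, 8.35 and 8.03 lay above group C without overlap (0.40 and 0.33), and Irf7 at 6.58, 6.74 and 6.37, Stat2 at 8.08, 8.15 and 7.79 and Ifit2 at 6.48, 6.64 and 6.48 lay below it. Irf7 had the smallest p (-0.48, SE 0.20, interval -0.90 to -0.06, adjusted p = 0.175) and alone passed without adjustment. After adjustment 5.51% of all genes were called, and 21.6% passed without adjustment, as 1 of the 9 did. Without the 5 libraries limma called Stat2 (-0.28, adjusted p = 0.0401) and Usp18 (0.40, adjusted p = 0.0285).

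SHENQI compound, group B, and the yangyinyiqi formula, group D, called none of the 9 genes in muscle, adjusted or not, where 0% of genes passed after adjustment and 1.18% before it, in each comparison. Irf7 was at 6.87, 6.76 and 6.39 in group B, all below group C (-0.37, interval -0.79 to 0.05, adjusted p = 1). Against rosiglitazone, SHENQI compound gave lower Oasl2 (7.58, 7.95 and 7.45 against 8, 8.35 and 8.03, a difference of -0.47), which passed without adjustment but was not called after it (limma adjusted p = 0.189). In that comparison 5.09% of all genes were called and 19.8% passed unadjusted. Without the 5 libraries limma called Stat2 higher in group B than in F (0.33, adjusted p = 0.0197). Over all treatments the 45 differences in muscle ran from -0.48 to 0.60, with intervals from -0.90 to 1.

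The wider interferon pathway was read from a list of further ligands, receptors, kinases, sensors, regulators and effectors, of which 118 were on the array and 103 could be tested in the aorta and 100 in muscle. In the aorta 14 were called lower in group A and 11 in group C, and none higher, where 1.91% and 3.11% of all genes were called lower. Their median differences were -0.66 and -0.58, against 0.02 over all genes in both. Without healthy aorta 1, 6 and 7 were lower and 0 and 1 higher, with medians of -0.28 and -0.14. Without healthy aorta 2, 34 and 36 were lower and again 0 and 1 higher. In muscle 49 were lower and 5 higher in group A, and 44 lower and 4 higher in group C. Of all 14201 genes tested in muscle, 10.8% and 10.2% were called lower, and 2220 and 2084 genes were called higher. The medians there were -0.39 and -0.40, against 0.03 and 0.04 over all genes. With each healthy muscle left out in turn 41 to 54 and 37 to 54 were lower. The values without arrays were computed after seeing the data. None of the ligands or receptors was called in any of these 4 comparisons. The receptor chain Ifnar2 differed in the aorta by -0.82 (adjusted p = 0.103) in group A, and Ifnar1 by -0.14.

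The interferon-gamma-induced GTPases and chemokines held the largest share, with 6 of 13 called lower in the aorta and 11 of 14 in muscle of group A. Of the antiviral effectors 6 of 48 were lower in the aorta and 25 of 45 in muscle. Of the sensors and adaptors 1 of 15 and 9 of 14 were lower. In muscle 1, 2 and 2 genes of these roles, in that order, were called higher, and none in the aorta. Over all genes 1.91% were called lower in the aorta and 10.8% in muscle. The aortic role counts include healthy aorta 1, without which only 6 list genes were called lower. Ifi47, an interferon-inducible GTPase that the list counts among the antiviral effectors, was lower in group A by -3.74 in the aorta (adjusted p = 0.0121) and -3.16 in muscle (adjusted p = 0.000108). Bst2, or tetherin, which holds budding virus at the cell surface, was lower by -2.51 (adjusted p = 0.00214) and -2.23 (adjusted p = 9.55e-05). Tgtp1, an interferon-gamma-induced GTPase, was lower by -2.53 in the aorta (adjusted p = 0.00556), and the related Iigp1 by -2.24 in muscle (adjusted p = 4.64e-05).

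Isg15, the substrate of Usp18, was lower in group A by -2.16 in the aorta (adjusted p = 0.0232) and -1.09 in muscle (adjusted p = 0.00568). Its healthy aortas were at 10.89, 8.02 and 9.19, and without the first the aortic difference was -1.40 and was not called (adjusted p = 0.0561). In group C it did not pass in the aorta (-1.61, adjusted p = 0.0598, and -0.85 without healthy aorta 1) or in muscle (-0.50, adjusted p = 0.178). In muscle its value of group C was -0.17 without healthy muscle 1 and -0.76 without healthy muscle 2, where it was called (adjusted p = 0.0357). Without healthy aorta 1 the aortic values of group A were -2.79 for Ifi47, -2.09 for Bst2 and -2.16 for Tgtp1, each still called. In group C the largest falls were Ifi47 (-2.81), Tgtp1 (-2.43) and Bst2 (-2.23) in the aorta, and Ifi47 (-2.83), Bst2 (-1.82) and the GTPase Irgm2 (-1.77) in muscle. Aortic Ifi47 of group C was not called without healthy aorta 1 (-1.86, adjusted p = 0.149) or 3 (-2.90, adjusted p = 0.0704).

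A few list genes were higher in KK/Ay muscle, a smaller share than over all genes in both groups A and C. The guanylate-binding protein Gbp6 was higher by 1.15 in group A (adjusted p = 0.0123) and 1.01 in group C (adjusted p = 0.0251). Without healthy muscle 1 these were 0.60 (adjusted p = 0.033) and 0.46 (adjusted p = 0.0972). Mavs, the adaptor of the cytosolic RNA sensors, was higher by 0.61 and Ifi35 by 0.65 in group A, and the DNA sensor Tlr9 by 0.82 and the kinase Eif2ak2 by 0.61 in group C. The Tlr9 value was 1.09 without healthy muscle 3 and 0.55 without healthy muscle 1. In group E against C, 3 list genes were lower (Tlr9 -1.06, Parp9 -0.90, Oas1a -0.68) and 9 were higher, led by Ifitm1 (0.77), Jak1 (0.53) and Myd88 (0.47). These 12 of 100 stood against 17.7% of all genes called in that comparison, whose groups shared no slide. In group F against C, Tlr9 was lower (-1.01, adjusted p = 0.0056) and Jak1 higher (0.44, adjusted p = 0.0198). These 2 of 100 stood against 5.51% of all genes called, and no slide carried both groups in muscle. Group B against F had only Tlr9, which was higher by 1.02 (adjusted p = 0.00506). In that comparison 5.09% of all genes were called, and its groups shared no slide either. The part of slide in the Tlr9 values was not tested. Between healthy tissues 34 of 106 list genes were higher and 3 lower in the aorta. Of all 16176 genes, 2335 were higher and 2617 lower. The list was not read without healthy aorta 1 in this comparison. The largest differences were those of Ifi27l1 (3.40), Ifi27l2a (2.57) and the chemokine Cxcl9 (1.92), and the lower genes were the receptor chain Ifngr2 (-1.12), Ifi205 (-0.67) and the interferon Ifna9 (-0.36). On healthy aorta 1, 65% of the 103 list genes tested had their highest aortic level. Mx1 and Ifnb1 were too dim to be tested, and Ifnb1 was well above background only on that array.

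The genes whose level followed the mean of the 9 standardised genes most closely were named as a description. Over the 21 aorta arrays these were Slfn10-ps (Pearson r = 0.95), Rtp4 (0.95), Trmt6 (0.95), Ccl4 (0.94) and Adar (0.94). Without healthy aorta 1 their r was between 0.78 and 0.87. Over the 21 muscle arrays they were Bst2 (0.90), Glb1 (0.89), Gvin1 (0.89), Psmb8 (0.89) and Iigp1 (0.88). The arrays share groups and slides, and these values carry no test.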

How the data were processed

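Per the labels and the study's methods, RNA of 3 randomly chosen mice of each group was hybridised to Agilent mouse arrays, for the aorta and for skeletal muscle. The deposited scanner files hold spot intensity from Agilent Feature Extraction (10.7 per the submitters' processing notes, 10.7.3.1 per the file headers). The authors also deposited a table of 42 columns of log2 values of the same arrays, which was used as an alternative. The authors corrected background, normalised by quantiles and tested with limma at an unadjusted p of 0.05.

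Here the median signal was corrected by normexp (offset 0) with the local background median and quantile-normalised over 42 arrays (limma 3.58.1 in R 4.3.3). Of 45018 spots, 1639 control spots were dropped, and spots, then probes of a gene, were averaged on the log2 scale. Gene symbols came from the 8 scanner files that carry annotation columns and were joined to the other 34 by probe name. Genes entered a test if the scanner called some probe of theirs well above background on each of the 3 arrays in any group of that tissue, which left 15845 genes in the aorta, 14201 in muscle and 16176 over both. limma's lmFit and eBayes were fitted on the 21 arrays of a tissue with 7 group means, and on 42 arrays with 14 means for differences between tissues. Genes were called at a Benjamini-Hochberg adjusted p below 0.05 over all genes tested. The script was tested on simulated data. With 3 arrays in each group the number of arrays limits the precision.

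The text names the 9 genes in every comparison and, of a list of interferon pathway genes, the 3 largest rises and falls called in each and Isg15, Mx1, Ifnar1, Ifnar2 and Ifnb1. It also names the 5 genes per tissue that correlate best with the mean of the 9, and nonagouti as a strain check. A further gene named by the rule is not reported here. The 9 genes and all lists were chosen with earlier results of these data known. Cell type markers were summed as linear levels. Promoter sequences came from RefSeq. Alternatives covered background, scaling, probe choice, filters, arrays in the fit, slide, replicate number and single arrays left out. Replicate numbers were not used to pair the samples in the main fit.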

Additional observations from a re-analysis of the deposited data

Results flagged for a closer look

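The difference of Usp18 from healthy mice differed between the tissues in limma's interaction test. It was lower in the aorta than in muscle by -2.20 for group A (adjusted p = 0.0138) and by -1.98 for group C (adjusted p = 0.0158). All 3 healthy aortas lay above all 18 KK/Ay aortas, while in muscle healthy array 3, at 7.58, lay below all KK/Ay arrays. Both values share the 6 healthy arrays.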

How the results depend on the processing

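Of 4991 single-gene values under all alternatives, 333 turned direction, of which 329 were called in neither setting. Among those that kept their direction 46 gained and 102 lost the call. Of A and C against G within a tissue, 25 of 765 values turned, among them aortic Ifit2 without healthy aorta 1 (0.06 for A and 0.30 for C) and aortic Irf9 for C (0.03). The 4 turns with a call in either setting all came in muscle, when slides 1, 3 and 11 were set against the other slides in the fit. These were Stat2 for B against F (-0.53, adjusted p = 0.0277) and F against C (0.58, adjusted p = 0.0186), and Usp18 for B against F (0.65, adjusted p = 0.036) and E against C (-0.33, adjusted p = 0.291). In muscle that term rests on the healthy arrays alone. Counts of the 9 genes called moved as follows. For A against G in the aorta (1 called), 42 arrays in the fit gave 6, and 12 arrays of both tissues, the brightest probe, the processed signal, quantiles within each tissue, a stricter filter and the authors' value table gave 2 each. The 6 arrays alone and slide as a fixed block gave 0, and leaving out single arrays 1 to 6. For C against G in the aorta (1 called), 12 arrays gave 0, 42 arrays 4, the 6 arrays alone 0 and single arrays left out 1 to 5. For A against G in muscle (6 called), 12 arrays, 42 arrays and the 6 arrays alone gave 2 each and single arrays left out 5 to 6. For C against G in muscle (3 called), 12 arrays, 42 arrays and the 6 arrays alone gave 0, no filter 1 and single arrays left out 1 to 5. For E against C in muscle (2 called), 12 arrays, 42 arrays, no filter, slide as a random block and the batch term gave 0, the stricter filter 1 of 7 tested, and single arrays left out 0 to 1. For F against C in muscle (0 called), the 5 leucocyte-marker libraries left out (chosen after seeing the data) and the 6 arrays alone gave 2 and the batch term 1. For B against F in muscle (0 called), the 5 libraries left out gave 1 and the batch term 2. For healthy aorta against muscle (8 called), the 5 libraries left out gave 3, the 6 arrays alone 0 and single arrays left out 3 to 8. The tissue difference of A against G (1 called) fell to 0 with slide as a random block. The cause of these changes was not tested. Within a tissue, same-numbered arrays of different groups showed no deviation common to all pairs, but some pairs were alike. Their residual r ran from -0.60 to 0.68 in the aorta (median 0.01) and -0.60 to 0.63 in muscle (median -0.03). It was over 0.1 in 22 of 63 aorta pairs and 16 of 63 muscle pairs. The high T cell sums of SHENQI, yangyinyiqi and huoxue aorta 2 are given above. Whether the aorta and muscle of the same number came from the same mouse was not tested. With a replicate block 1 gene was called for A and for C against G in the aorta, 5 and 3 in muscle, 1 for E against C in muscle and 8 between healthy tissues. Aortic Usp18 lost its call for A against G with 12 arrays (-1.53, adjusted p = 0.062), the 6 arrays alone (adjusted p = 0.0992) and slide as a fixed block (-2.51, adjusted p = 0.114). A fixed slide block could be fitted for A against G and for D, E and F against C in the aorta, for C against A and B and D against C in muscle, and for the tissue difference of D against C.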
